A study of Mus musculus with 67 samples.

Results

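Cytokines are secreted proteins by which helper T cells direct other immune cells. The 10 genes described here (Il2, Il21, Il17a, Il17f, Ifng, Il4, Il10, Il22, Csf2 and Lif) were chosen by name as cytokines of helper T cells, out of 35539 genes in the tables. No measured value entered the rule, but earlier results of these data were known when the genes were chosen. RNA was sequenced from CD4+ T cells and B cells purified from spleen and from inguinal and brachial lymph nodes of C57BL/6 mice, 8 to 12 weeks old and of both sexes. The mice had been immunized to induce experimental autoimmune encephalomyelitis (EAE), a model of autoimmune disease of the central nervous system, or were naive. This gave 4 sets (EAE T, naive T, EAE B and naive B cells) with 5 arms of 3 libraries each, or 60 libraries in 20 groups. In 4 arms cells were stimulated for 18 h through the antigen receptor, with anti-CD3 for T cells and anti-IgM/IgG for B cells. Latex beads carried anti-Btla (clone 6A6) together with soluble interferon beta (anti-Btla+IFNb), anti-Btla alone, control Ig with interferon beta (CtrlIg+IFNb) or control Ig alone (CtrlIg). The fifth arm was unstimulated, and neither beads nor a time in culture are given for it. Btla is an inhibitory receptor of lymphocytes.

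Naive helper T cells that meet antigen first make Il2, a growth factor for T cells, and differentiated effector cells add cytokines that define their lineage. Ifng marks type 1 cells and activates macrophages, Il4 marks type 2 cells and acts on B cells, and Il17a and Il17f mark type 17 cells and recruit neutrophils through epithelium. Il22, also made by type 17 cells, acts on epithelial barriers, and Il21, a product of follicular and type 17 helper cells, drives germinal center B cells. Csf2 (GM-CSF) activates myeloid cells and is needed for disease in EAE, Il10 restrains inflammation, and Lif belongs to the Il6 family of cytokines.

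Libraries held 7.30 to 34.0 M counts for T cells and 6.68 to 61.9 M for B cells. Levels are given as CPM, counts scaled to the total of the library, for libraries numbered 1, 2 and 3 in that order. A count of 3 in a library corresponded to 0.0882 to 0.411 CPM in T cells and 0.0484 to 0.449 CPM in B cells, and lower values are close to the limit of counting. T cell markers (6 genes, all detected) summed to 1113 to 2656 CPM in EAE T, 1640 to 2026 CPM in naive T and 16.5 to 32.1 CPM in B cells, where B cell markers (5 genes) summed to 3026 to 5619 CPM. The label CD4+ was met unequally. Cd8a and Cd8b1, which define CD8 T cells, summed to 13.2 to 26.2 CPM in EAE T libraries but to 501 to 1097 CPM in naive T libraries, above Cd4 and Zbtb7b there (334 to 613 CPM, against 545 to 789 CPM in EAE T). Values of naive T cells therefore describe a mixture of CD4 and CD8 transcripts, and in every comparison of EAE with naive T cells the immunization and the CD8 content cannot be told apart. In bulk RNA, fewer cells that make a cytokine and less of its RNA per cell cannot be told apart either.

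The genes lie on 4 chromosomes of GRCm38, with several pairs of neighbours. Il2 (chr3:37120523-37125959) and Il21 (chr3:37222759-37232636) lie 96.8 kb apart on chromosome 3, and Il17a (chr1:20730905-20734496) and Il17f (chr1:20777146-20790617) lie 42.65 kb apart on chromosome 1, both pairs with no coding gene between them. Ifng (chr10:118441046-118445892) and Il22 (chr10:118204942-118210047) share chromosome 10, and Il4 (chr11:53602982-53618669), Csf2 (chr11:54247271-54249667) and Lif (chr11:4257557-4272514) share chromosome 11. Il10 lies at chr1:131019845-131024974. Exons of Il21 and Csf2 overlap an antisense gene (Gm12534 and Gm12223) and those of Ifng an unclassified gene on the same strand (Gm49751), and whether counting used the strand is not given in the sources used here. Il22 has a near copy, Iltifb, which was listed at no more than 0.398 CPM in any T cell library, and reads can be split between them.

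The 250 bases before the transcription start are shown for the 3 genes whose levels were called changed by a treatment of stimulated T cells (Il2, Ifng and Il21) and for the neighbours Il17a and Il17f, which moved together in EAE T cells. Sequences are from RefSeq on GRCm38.p6, in the direction of transcription. Capitals mark matches of 4 short motifs searched on both strands. These were GGAAA, the core bound by NFAT factors, and AGGTCA, which nuclear receptors such as the ROR factors bind. The others were TGANTCA, the site of AP-1 with any base allowed at its centre, and TATAAA, the core promoter element bound by the TBP protein.
Il2: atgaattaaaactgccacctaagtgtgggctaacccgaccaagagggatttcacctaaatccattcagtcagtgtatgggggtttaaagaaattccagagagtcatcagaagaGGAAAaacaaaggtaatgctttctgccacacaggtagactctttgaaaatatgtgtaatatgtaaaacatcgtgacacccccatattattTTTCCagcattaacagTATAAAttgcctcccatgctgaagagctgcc
Ifng: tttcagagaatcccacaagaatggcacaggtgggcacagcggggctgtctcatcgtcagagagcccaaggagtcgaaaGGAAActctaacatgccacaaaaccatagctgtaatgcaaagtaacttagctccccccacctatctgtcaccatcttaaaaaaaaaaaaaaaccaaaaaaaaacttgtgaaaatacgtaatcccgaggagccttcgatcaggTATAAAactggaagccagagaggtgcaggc
Il21: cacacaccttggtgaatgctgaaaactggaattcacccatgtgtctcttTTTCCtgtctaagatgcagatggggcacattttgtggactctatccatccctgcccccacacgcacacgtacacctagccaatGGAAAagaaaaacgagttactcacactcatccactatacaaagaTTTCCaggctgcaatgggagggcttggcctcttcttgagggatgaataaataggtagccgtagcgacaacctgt
Il17a: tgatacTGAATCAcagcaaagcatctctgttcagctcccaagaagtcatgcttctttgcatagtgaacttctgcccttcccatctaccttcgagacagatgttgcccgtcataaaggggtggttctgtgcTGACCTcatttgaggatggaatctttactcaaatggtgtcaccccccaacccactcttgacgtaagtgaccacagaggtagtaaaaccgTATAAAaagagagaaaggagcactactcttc
Il17f: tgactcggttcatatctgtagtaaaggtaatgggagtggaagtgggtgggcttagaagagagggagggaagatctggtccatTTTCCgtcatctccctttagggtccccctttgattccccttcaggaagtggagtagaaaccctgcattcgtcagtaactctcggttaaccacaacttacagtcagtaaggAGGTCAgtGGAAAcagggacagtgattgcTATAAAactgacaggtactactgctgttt
These windows are chr3:37125955-37126204 for Il2 (minus strand), chr10:118440796-118441045 for Ifng (plus), chr3:37232637-37232886 for Il21 (minus), chr1:20730655-20730904 for Il17a (plus) and chr1:20784271-20784520 for Il17f (minus). A promoter of RefSeq was matched for 9 of the 10 genes, and Il10 had none. GGAAA stood in the promoters of 8 of these 9 genes, against 55.6% of 32851 promoters of the same length, and Il17a was the exception. Il4 had 2 promoters, with 5 matches at chr11:53618666-53618915 and 0 at chr11:53617339-53617588. It was counted by the first, whereas the share counts each promoter. TATAAA stood in 5 (Il2, Il17a, Il17f, Ifng and Il22), against 12.4% of promoters. In Il2 and Il17a it began 31 bases before the start, in Ifng 30 and in Il17f 29, whereas in Il22 it began 170 bases before the start. AGGTCA stood in 2, Il17a and Il17f (14% of promoters), and TGANTCA in 2, Il17a (as TGAATCA) and Lif (as TGACTCA), against 6.75%. A match is a description of the letters and not of a bound site.

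Stimulation through the antigen receptor was compared with no stimulation to show which cytokines were higher in stimulated T cells. These arms can also differ in beads and time in culture, which cannot be told apart from the receptor signal. In EAE T cells 9 of 10 genes were called higher with control Ig beads than without stimulation, and none lower. Genes called higher made up 31.7% of 14547 genes tested there, and genes called lower 31.4%. In naive T cells 6 of the 9 genes tested were called higher and none lower, against 27.1% called higher and 23% lower of 15137 genes. The median log2 change of the cytokines was 2.29 in EAE T and 2.71 in naive T cells, against -0.071 and -0.024 over all genes tested. Il22 was too low to be tested in naive T cells. Calls are those of the edgeR quasi-likelihood test with Benjamini-Hochberg adjustment at 0.05, and each log2 change is given ± its SE. Activation, anti-Btla and IFNb comparisons of a set share control Ig libraries.

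**Figure D1:**
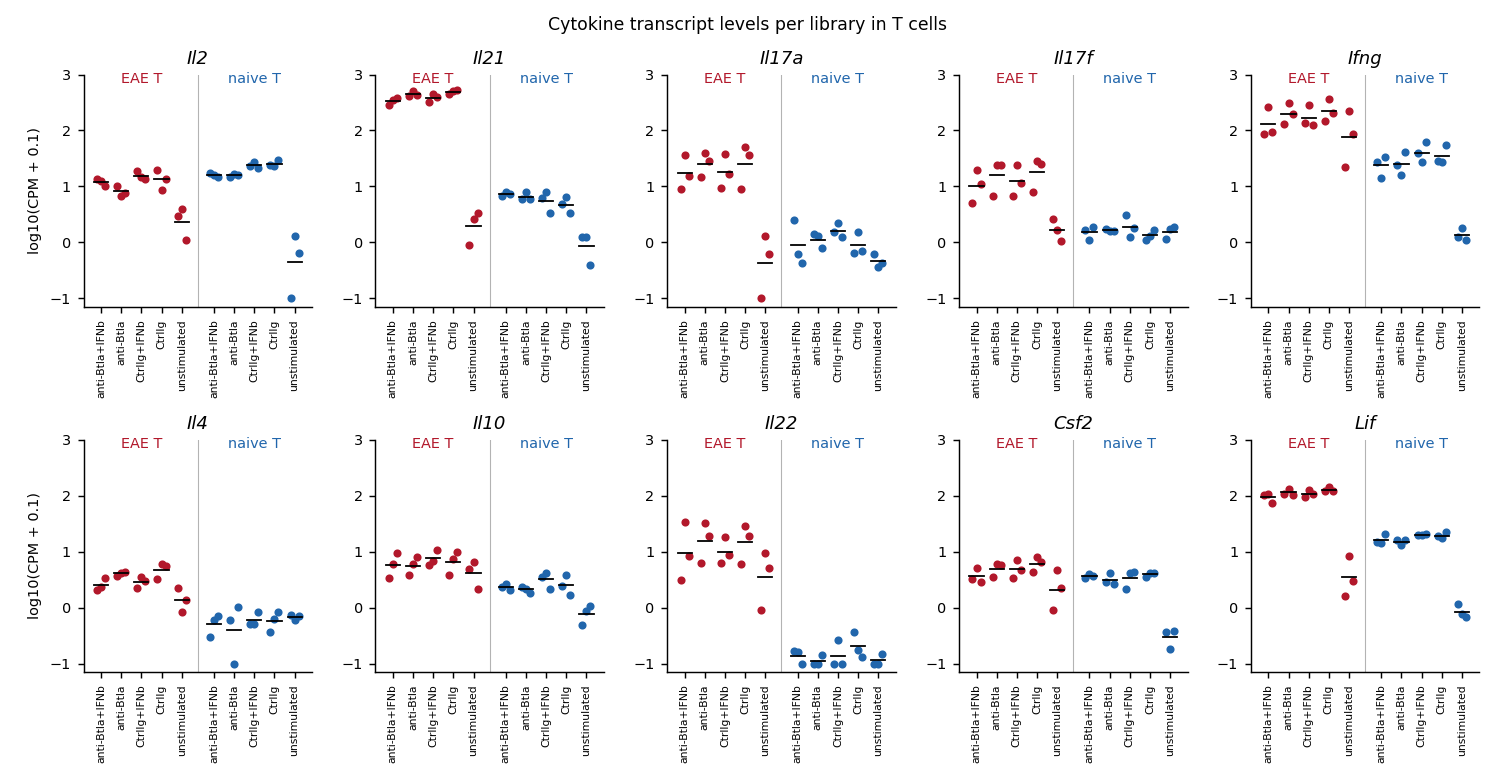
Levels of the 10 cytokine genes in the 30 T cell libraries, as log10(CPM + 0.1). Points are libraries, lines are means of 3, with EAE T on the left and naive T on the right of each panel. Il21 in stimulated EAE T cells reached 286 to 527 CPM, against 3.23 to 7.997 CPM in stimulated naive T cells, and Il2 is the gene with lower levels in EAE T than in naive T cells under control Ig.

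Il2 was at 19.6, 8.67 and 13.5 CPM in control Ig-stimulated EAE T cells and at 2.87, 3.81 and 0.992 CPM in unstimulated EAE T cells (log2 change 2.67 ± 0.32, adjusted p = 2.65e-06). Naive T cells had Il2 at 24.4, 22.8 and 28.97 CPM with control Ig and at 0, 1.22 and 0.548 CPM without stimulation (log2 change 5.39 ± 0.27, adjusted p = 9.37e-12). The stimulated and unstimulated libraries did not overlap in either set. Under control Ig all 3 EAE T libraries lay below all 3 naive T libraries, and Il2 was called lower in EAE (log2 change -0.81 ± 0.23, adjusted p = 0.0162). That call was lost without EAE library 3 (adjusted p = 0.0509) or naive library 3 (0.0721). Without stimulation the libraries overlapped and the difference was not called (log2 change 2.00 ± 0.76, adjusted p = 0.06704).

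Il21 was the most induced of the 10 in EAE T cells. It was at 451, 509.9 and 527 CPM with control Ig and at 0.8097, 2.54 and 3.18 CPM without stimulation (log2 change 7.67 ± 0.17, adjusted p = 1.30e-13). Naive T cells had Il21 at 4.67, 6.39 and 3.23 CPM with control Ig and at 1.13, 1.15 and 0.296 CPM without stimulation (log2 change 2.71 ± 0.33, adjusted p = 1.30e-06). Every stimulated library of either set thus lay above the unstimulated ones, and every stimulated EAE T library lay far above every naive T library. EAE exceeded naive under control Ig (log2 change 6.88 ± 0.19, adjusted p = 3.01e-08) but was not called without stimulation (log2 change 1.65 ± 0.62, adjusted p = 0.0642). Of the Il21 counts, 25.8% in EAE T and 27.4% in naive T cells fell on a transcript annotated as a retained intron.

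The type 17 cytokines appeared with stimulation in EAE T cells. Il17a was at 8.96, 50.2 and 36.9 CPM in control Ig-stimulated EAE T cells and at 0, 1.21 and 0.522 CPM in unstimulated ones (log2 change 5.79 ± 0.35, adjusted p = 1.10e-09). Naive T cells had it at 0.548, 1.44 and 0.588 CPM with control Ig and 0.519, 0.257 and 0.325 CPM without stimulation, which was not called (log2 change 1.32 ± 0.64, adjusted p = 0.0997). The 3 stimulated EAE T libraries spanned a wide range, with number 1 lowest, yet all lay above the naive T libraries (log2 change 5.36 ± 0.68, adjusted p = 1.47e-04).

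Il22 was already present in EAE T cells without stimulation. It was at 6.04, 28.6 and 19.4 CPM with control Ig and 0.801, 9.28 and 5.05 CPM without stimulation, groups that overlapped although each numbered pair rose (log2 change 1.91 ± 0.32, adjusted p = 8.42e-05, and adjusted p = 0.0763 without the replicate block). In naive T cells no library reached 3 counts of Il22, and levels ran from 0 to 0.274 CPM over the 15 libraries. Under control Ig 536 counts in EAE T stood against 4 in naive T libraries, a ratio of 242 between counts pooled over 3 libraries and scaled to their pooled depth (exact 95% interval 93.9 to 891, counting error only). The means over libraries, which weight the shallow ones equally, were 18.01 CPM in EAE T and 0.127 CPM in naive T cells. The fitted log2 change was 7.78 ± 0.83, adjusted p = 4.61e-05. Without stimulation the counts were 228 against 1, a pooled ratio of 209.6 (37.25 to 8315).

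Il17f needed its transcripts to be read apart. The gene was at 7.83, 27.8 and 25.4 CPM with control Ig and 2.53, 1.596 and 0.958 CPM without stimulation in EAE T cells (log2 change 3.81 ± 0.42, adjusted p = 8.83e-07). Naive T cells had the gene at 1, 1.21 and 1.58 CPM and 1.06, 1.604 and 1.797 CPM in the same arms (log2 change -0.18 ± 0.36, adjusted p = 0.713). Pooled over arms, 89.5% of the counts in EAE T cells came from the coding transcript at chr1:20777146-20784270. In naive T 81.2%, in EAE B 92.5% and in naive B cells 94.6% came from a noncoding transcript of 3 exons at chr1:20787479-20790585, which ends 3208 bases upstream of the coding one. Counted over coding transcripts alone, Il17f was at 5.93, 26.8 and 24.4 CPM in control Ig-stimulated EAE T cells and at 0.152, 0 and 0.309 CPM in naive T cells. In unstimulated EAE T cells the coding mean was 0.311 CPM, of 1.69 CPM for the gene. The unstimulated level in the activation effect of EAE T cells was therefore mostly that of other transcripts. The level near 1 CPM in naive T and B cells was thus mostly not counted on the cytokine's coding transcript. With all transcripts, EAE exceeded naive under control Ig (log2 change 3.99 ± 0.48, adjusted p = 1.03e-04) and the unstimulated groups overlapped (log2 change 0.11 ± 0.43, adjusted p = 0.8596).

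**Figure D2:**
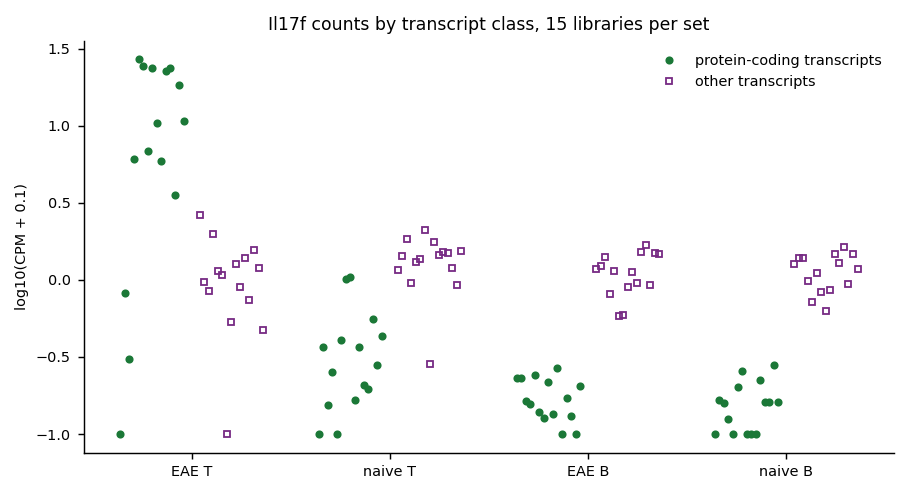
Il17f counts on protein-coding transcripts (filled circles) and on its other transcripts (open squares) as log10(CPM + 0.1), 15 libraries per set. Coding transcripts reached 26.8 CPM in control Ig-stimulated EAE T cells, whereas in unstimulated EAE T, naive T, EAE B and naive B cells the other transcripts held most counts.

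Ifng, unlike the type 17 genes, was abundant in EAE T cells without stimulation. It was at 145, 365 and 202 CPM with control Ig and at 22.3, 224 and 87 CPM without stimulation. These groups overlapped, since library 2 was high in both, but each numbered pair rose (log2 change 1.35 ± 0.29, adjusted p = 6.72e-04), a call lost without the replicate block (adjusted p = 0.141). Naive T libraries held 28.1, 26.9 and 54.2 CPM with control Ig and at 1.17, 1.71 and 1.02 CPM without stimulation (log2 change 5.06 ± 0.25, adjusted p = 7.44e-12). EAE exceeded naive both without stimulation (log2 change 6.54 ± 0.89, adjusted p = 6.26e-04) and under control Ig (log2 change 2.74 ± 0.37, adjusted p = 2.33e-04), with no overlap. CD8 T cells and NK cells also make Ifng. Cd8a and Cd8b1 stood at 501 to 763 CPM in stimulated and 926 to 1097 CPM in unstimulated naive T cells. NK markers (6 genes) summed to 42.9 to 54.0 CPM in unstimulated EAE T cells, against 21.4 to 25.8 CPM in unstimulated naive T cells. In stimulated cells they overlapped, at 34.3 to 67.3 CPM in EAE T and 48.6 to 61.1 CPM in naive T cells. Over all arms of a set, only Gzma of the 6 had a higher median in EAE T than in naive T cells (26.1 against 6.72 CPM). Prf1 (12.9 against 37.9 CPM), Klre1, Klra8, Ncr1 and Klrb1c had lower medians in EAE T cells. The part of these cells in the Ifng values was not tested.

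Il4 was low throughout. In EAE T cells it was at 3.13, 5.85 and 5.45 CPM with control Ig and 2.14, 0.725 and 1.25 CPM without stimulation (log2 change 1.88 ± 0.36, adjusted p = 3.06e-04). In naive T cells it stayed at 0.274, 0.531 and 0.742 CPM and 0.649, 0.513 and 0.604 CPM in the same arms (log2 change -0.044 ± 0.65, adjusted p = 0.965). EAE libraries lay above naive ones under control Ig (log2 change 3.11 ± 0.42, adjusted p = 2.18e-04). Basophils also make Il4. Basophil and mast cell markers (4 genes) summed to 2.39 to 20.3 CPM in stimulated and 17.9 to 54.2 CPM in unstimulated EAE T cells, against at most 2.63 CPM in naive T cells. The part of these cells in the difference between EAE and naive was not tested.

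Il10 was at 3.67, 7.44 and 9.79 CPM with control Ig and 4.81, 6.53 and 2.09 CPM without stimulation in EAE T cells, the only gene not called there (log2 change 0.71 ± 0.41, adjusted p = 0.138). Levels in naive T cells were 2.33, 3.72 and 1.61 CPM and 0.3895, 0.7699 and 0.976 CPM in these arms and rose (log2 change 1.66 ± 0.35, adjusted p = 6.07e-04). EAE exceeded naive without stimulation (log2 change 2.56 ± 0.51, adjusted p = 0.00458) and, with 1 naive library above the lowest EAE library, under control Ig (log2 change 1.57 ± 0.42, adjusted p = 0.0111). The control Ig call was lost without EAE library 3 (adjusted p = 0.0554) or naive library 3 (0.0515).

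Csf2 rose in both sets from different starting levels. It was at 4.21, 7.84 and 6.56 CPM with control Ig and 0.801, 4.59 and 2.12 CPM without stimulation in EAE T cells, overlapping ranges (log2 change 1.44 ± 0.29, adjusted p = 4.36e-04). Naive T libraries held 3.43, 4.02 and 4.08 CPM and 0.2597, 0.0856 and 0.279 CPM, well apart (log2 change 4.19 ± 0.38, adjusted p = 3.32e-08). Under control Ig EAE libraries lay just above naive ones (log2 change 0.76 ± 0.27, adjusted p = 0.0417), a call that held in 1 of 6 fits with a library left out and not in a fit of all 30 T cell libraries (adjusted p = 0.104). The range of log2 changes over those 6 fits was 0.54 to 0.98.

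Lif rose in both sets. It was at 121, 146 and 119 CPM with control Ig and 1.54, 8.38 and 2.89 CPM without stimulation in EAE T cells (log2 change 5.06 ± 0.23, adjusted p = 6.60e-11). Naive T libraries held 18.8, 17.2 and 22.1 CPM and 1.05, 0.676 and 0.586 CPM (log2 change 4.85 ± 0.19, adjusted p = 3.88e-13). Neither set overlapped between arms, and EAE exceeded naive under control Ig (log2 change 2.79 ± 0.13, adjusted p = 2.76e-07) and without stimulation (log2 change 2.58 ± 0.62, adjusted p = 0.0111). The unstimulated call was lost without naive library 3 (adjusted p = 0.0595) or naive library 2 (0.0518).

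**Figure D3:**
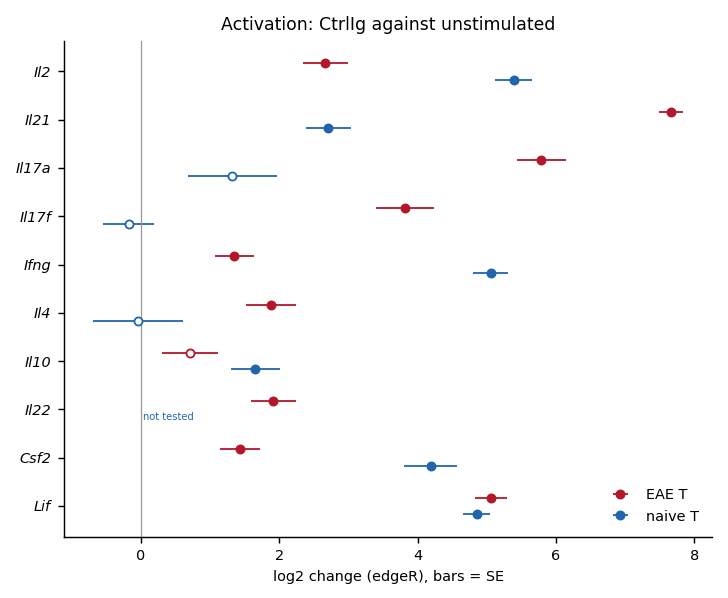
Activation effect on each gene, control Ig-stimulated against unstimulated cells, as the edgeR log2 change (points) with its SE (bars) in EAE T and naive T cells, 3 libraries per arm. Filled points were called. Il21, Il17a, Il17f and Il4 lie further right in EAE T cells, and Il2, Ifng and Csf2 further right in naive T cells.

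Over both states, EAE against naive T cells called 9 of 10 genes higher and 1, Il2, lower under control Ig, where 27.7% of 13478 genes were called higher and 23.9% lower. The median log2 change of the 10 was 2.95, against -0.013 over all genes. Without stimulation 3 of 6 tested genes (Ifng, Il10 and Lif) were called higher and none lower, against 18.6% higher and 17% lower of 13909 genes. Myeloid markers (7 genes) differed in the same direction, at 106 to 315 CPM in unstimulated EAE T and 12.2 to 18.1 CPM in unstimulated naive T cells, and their part in these calls was not tested. When all 30 T cell libraries shared a fit, 7 of the 10 were called without stimulation. The share of all genes called in that fit is not given here, so this count cannot be set beside the shares above.

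The difference between the activation effects (EAE minus naive) was tested in 1 fit of 30 T cell libraries and called for 7 of 10 genes, against 37.8% of 15966 genes. Activation was larger in EAE T cells for Il21 (difference 5.01 ± 0.62), Il17a (4.52 ± 1.01), Il17f (4.01 ± 0.61) and Il4 (1.96 ± 0.71). It was smaller in EAE T cells for Ifng (-3.66 ± 0.56), Csf2 (-2.68 ± 0.52) and Il2 (-2.60 ± 0.54). Each of these 3 had a higher unstimulated mean in EAE than in naive T cells, 111 against 1.3 CPM for Ifng, 2.51 against 0.208 CPM for Csf2 and 2.56 against 0.589 CPM for Il2. Adjusted p-values ran from 5.15e-07 (Il21) to 0.0327 (Il4), and only the call of Il4 was lost when a numbered set of libraries was left out. Il10 (-0.88 ± 0.59, adjusted p = 0.261) and Lif (0.28 ± 0.50, adjusted p = 0.712) were not called. For Il22, with 5 naive counts in these arms, the difference is not given.

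Between genes, levels can be compared only per transcript length, as TPM. In control Ig-stimulated EAE T cells Il21 led (342, 348 and 359 TPM) with Ifng (163, 367 and 216 TPM), and these 2 ranges overlapped. Lif, Il17a, Il17f, Il22 and Il2 followed with means of 40.0, 38.6, 24.7, 23.1 and 18.5 TPM, and neighbours among them did not differ beyond their spread. Il4, Csf2 and Il10 were lowest, with means of 13.8, 10.9 and 6.48 TPM. In control Ig-stimulated naive T cells Ifng (mean 33.6 TPM) and Il2 (28.1 TPM) overlapped at the top, Csf2 was next at 5.94 TPM, and Il17a and Il22 were lowest at 0.901 and 0.148 TPM. Without stimulation Ifng led in EAE T cells at 104.5 TPM. Across all 20 groups 9 of 10 genes had their highest mean CPM in an EAE T group, and Il2 in naive T cells with control Ig (25.4 ± 3.2 CPM, SD, n = 3), and by TPM this count was also 9.

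**Figure D4:**
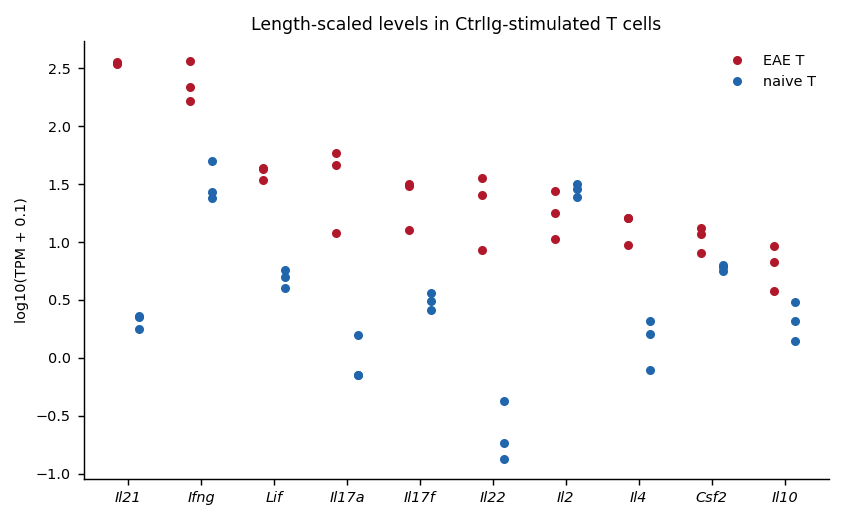
Length-scaled levels, log10(TPM + 0.1), of the 10 genes in control Ig-stimulated EAE T and naive T cells, 3 libraries each, ordered by the mean in EAE T cells. Il21 and Ifng lead in EAE T cells, and Ifng and Il2 lead in naive T cells.

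Libraries with the same number moved together in EAE T cells. Library 2 was the highest of 3 in 5 of 5 arms for Il17a, Ifng, Il22, Csf2 and Lif, and library 1 the lowest in 5 of 5 arms for Il21, Il17a and Il22. Il2 did not follow this order, with library 2 highest in 1 arm. Markers of other cells also differed by number. Myeloid markers summed to 63.8 to 84.4 CPM in library 2, 31.1 to 43.2 CPM in library 3 and 17.8 to 25.3 CPM in library 1 over the 4 stimulated arms, and to 315, 143 and 106 CPM in unstimulated libraries 2, 3 and 1. Basophil and mast cell markers summed to 13.9 to 20.3 CPM in stimulated libraries 2 and 3 against 2.39 to 5.84 CPM in stimulated libraries 1, and B cell markers (5 genes) to 40.1 to 62.4 CPM in library 1 against 5.92 to 15.7 CPM in the other numbers in the same arms. Their part in the spread of the cytokines was not tested.

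Anti-Btla was compared with control Ig in stimulated cells to show how cytokine levels differed with the antibody. The authors state that this clone blocks the binding of Hvem, the ligand of Btla, and also triggers inhibitory signaling. The comparison does not separate these actions. Over the arms with and without IFNb, none of 10 genes was called in EAE T cells, against 0.481% of 14547 genes called higher and 0.213% lower. There 1 of the 10, Il2, had an unadjusted p below 0.05, among 2090 genes at that level, and DESeq2 called none of the other 9 and gave Il2 no adjusted p. In naive T cells 2 of 9 genes tested, Il2 and Ifng, were called lower with anti-Btla, and none higher. Only 0.139% of 15137 genes were called lower and 0.0198% higher there. The cytokines' median log2 change was -0.19 in EAE T cells (0.0005 over all genes) and -0.32 in naive T cells (0.001 over all genes).

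Il2 in naive T cells was at 14.6, 16.8 and 16.1 CPM with anti-Btla, against 24.4, 22.8 and 28.97 CPM with control Ig. In the presence of IFNb it was at 17.1, 15.6 and 14.5 CPM with anti-Btla+IFNb, against 22.9, 26.9 and 21.2 CPM with CtrlIg+IFNb. All 6 anti-Btla libraries lay below all 6 control Ig libraries (log2 change -0.65 ± 0.11, adjusted p = 0.0198). The ratio of CPM within numbered pairs had a median of 0.640 and ran from 0.554 to 0.748. Taken alone, neither arm was called (without IFNb -0.72 ± 0.16, adjusted p = 0.171; with IFNb -0.58 ± 0.15, adjusted p = 0.438).

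Ifng in naive T cells was at 23.7, 16.04 and 40.8 CPM with anti-Btla, against 28.1, 26.9 and 54.2 CPM with control Ig, and at 27.4, 14.3 and 34.1 CPM with anti-Btla+IFNb, against 39.1, 26.7 and 61.7 CPM with CtrlIg+IFNb. Library 3 was highest in every stimulated arm, so the groups overlapped, but the anti-Btla library was lower in 6 of 6 numbered pairs (log2 change -0.63 ± 0.10, adjusted p = 0.0198). The pair ratios ran from 0.534 to 0.843 with a median of 0.649. Taken alone, neither arm was called for Ifng (adjusted p = 0.361 without and 0.131 with IFNb), and with DESeq2 it was not called (adjusted p = 0.133). Both calls, of Il2 and of Ifng, rested on the replicate block and on most libraries. Without the block the adjusted p was 0.436 for Il2 and 0.909 for Ifng, and with 1 of 15 libraries left out Il2 was called in 7 and Ifng in 5 of 15 fits. The markers of CD4 and CD8 T cells moved as well. Cd4 and Zbtb7b were higher with anti-Btla in 6 of 6 pairs (362 to 465 CPM with anti-Btla, against 334 to 399 CPM with control Ig), and Cd8a and Cd8b1 lower in 5 of 6 (501 to 708 CPM against 525 to 763 CPM). Their part in the lower Ifng and Il2 was not tested.

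The other 7 genes tested in naive T cells were not called with anti-Btla. Il21 was higher with anti-Btla in 6 of 6 numbered pairs (log2 change over both arms 0.47 ± 0.16, adjusted p = 0.352). Without IFNb it was at 5.83, 7.82 and 5.95 CPM with anti-Btla, against 4.67, 6.39 and 3.23 CPM with control Ig beads. With IFNb the means were 7.31 CPM with anti-Btla+IFNb and 5.70 CPM with CtrlIg+IFNb. Lif was lower in 5 of 6 pairs (log2 change -0.33 ± 0.081, adjusted p = 0.142), and so was Il10 (log2 change -0.38 ± 0.21, adjusted p = 0.712). Csf2, Il17a, Il4 and Il17f had log2 changes of -0.15 ± 0.17, -0.32 ± 0.38, -0.15 ± 0.43 and -0.11 ± 0.25.

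In EAE T cells Il2 was at 10.2, 6.69 and 7.53 CPM with anti-Btla, against 19.6, 8.67 and 13.5 CPM with control Ig, and at 13.7, 12.3 and 10.1 CPM with anti-Btla+IFNb, against 18.7, 14.5 and 13.5 CPM with CtrlIg+IFNb. It was lower in 6 of 6 numbered pairs, with a median ratio of 0.738, but was not called (log2 change -0.53 ± 0.19, adjusted p = 0.195). Il21, Il17f, Ifng and Csf2 were also lower in 6 of 6 pairs, with log2 changes of -0.14 ± 0.077, -0.20 ± 0.22, -0.24 ± 0.20 and -0.32 ± 0.19, none of them called. Il22 was the exception in sign (0.097 ± 0.21). The anti-Btla effect was called different between EAE T and naive T cells for none of the 10 genes with edgeR or DESeq2, against 0.921% of 15966 genes called. At an unadjusted p below 0.05 there was 1 of the 10, among 2020 of all genes. For Il2 the difference was 0.11 ± 0.23, adjusted p = 0.9105, for Ifng 0.39 ± 0.25, adjusted p = 0.574 and for Il21, which had the smallest p, -0.62 ± 0.16, adjusted p = 0.06395. With no filter on low counts edgeR called these last 2 differences (0.38 ± 0.085, adjusted p = 0.00123 for Ifng and -0.63 ± 0.10, adjusted p = 5.19e-07 for Il21). It also called the anti-Btla effects in EAE T cells on Il2 (-0.53 ± 0.13, adjusted p = 0.00612) and Ifng (-0.24 ± 0.066, adjusted p = 0.0235). The log2 changes were near those of the main fit and the SEs were smaller. The share of all genes called with no filter is not given here.

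**Figure D5:**
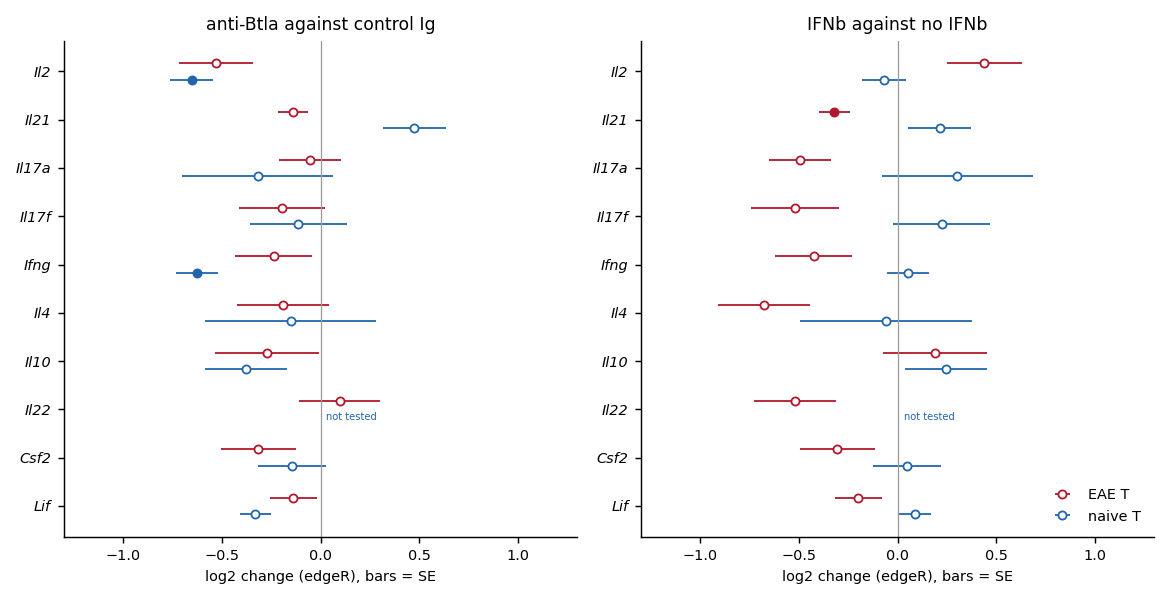
Effects of anti-Btla against control Ig (left) and of IFNb against no IFNb (right) on each gene in stimulated T cells, as edgeR log2 changes (points) with SE (bars), 6 libraries against 6. Filled points were called: Il2 and Ifng for anti-Btla in naive T cells and Il21 for IFNb in EAE T cells.

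IFNb, a type I interferon used in multiple sclerosis, was compared with no IFNb over both kinds of beads. In EAE T cells 1 of 10 genes, Il21, was called lower and none higher, against 1.44% of 14547 genes called lower and 0.777% higher. Il21 was at 286, 349 and 378 CPM with anti-Btla+IFNb, against 408, 504 and 433 CPM with anti-Btla, and at 321, 452 and 391 CPM with CtrlIg+IFNb, against 451, 509.9 and 527 CPM with CtrlIg. It was lower with IFNb in 6 of 6 numbered pairs, with ratios of 0.692 to 0.887, although the groups overlapped (log2 change -0.32 ± 0.077, adjusted p = 0.04297). The call held in 4 of 15 fits with a library left out and in neither kind of beads alone, and without the replicate block the adjusted p was 0.341.

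Of the 10 genes 7 had an unadjusted p below 0.05 for IFNb in EAE T cells, among 2165 of 14547 genes. Besides Il21 these were Il4 (-0.68 ± 0.23, adjusted p = 0.164), Il17a (-0.50 ± 0.16, adjusted p = 0.125), Il22 (-0.52 ± 0.21, adjusted p = 0.236), Il17f (-0.52 ± 0.22, adjusted p = 0.275) and Ifng (-0.43 ± 0.20, adjusted p = 0.323), with negative values, and Il2 (0.44 ± 0.19, adjusted p = 0.279), with a positive one. None of these 6 passed the adjusted threshold. Il4, Il17f and Ifng, and also Csf2 and Lif, were lower with IFNb in 6 of 6 numbered pairs, and Il2 was higher in 5 of 6. Il2 was at 13.7, 12.3 and 10.1 CPM with anti-Btla+IFNb, against 10.2, 6.69 and 7.53 CPM with anti-Btla, and at 18.7, 14.5 and 13.5 CPM with CtrlIg+IFNb, against 19.6, 8.67 and 13.5 CPM with CtrlIg. On anti-Btla beads it was higher with IFNb in 3 of 3 pairs (log2 change 0.63 ± 0.27, adjusted p = 0.403) and on control Ig beads in 2 of 3 (0.25 ± 0.26, adjusted p = 0.836). With no filter on low counts 6 of the 10 were called in this comparison. For Il2, Il17a, Il17f, Ifng and Il22 the log2 changes stayed near those above. Their SEs were smaller, at 0.13, 0.105, 0.122, 0.0663 and 0.124. The share of all genes called with no filter is not given here.

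In naive T cells no effect of IFNb was called for any of the 9 genes tested and for 0% of 15137 genes with edgeR. At an unadjusted p below 0.05 there were 632 genes and none of the 9, and DESeq2 called 6 genes. Log2 changes ran from -0.070 (Il2) to 0.30 (Il17a). The IFNb effect was called different between EAE T and naive T cells for none of the 10 with edgeR or DESeq2, against 1.25% of 15966 genes called. At an unadjusted p below 0.05 there were 2 of the 10, among 1992 of all genes. The difference for Il21 was -0.53 ± 0.16, adjusted p = 0.116, and for Ifng -0.47 ± 0.25, adjusted p = 0.458. With no filter on low counts those of Il21 (-0.54 ± 0.10, adjusted p = 5.00e-05) and Ifng (-0.48 ± 0.085, adjusted p = 4.24e-06) were called, with smaller SEs.

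Whether anti-Btla acted differently with IFNb was tested as a difference of differences. None of 10 genes was called in EAE T cells and none of 9 in naive T cells, against 0% and 0% of all genes, and none had an unadjusted p below 0.05. Over all genes 564 were below that p in EAE T and 959 in naive T cells, and DESeq2 called 6 and 11. For Il2 the differences were 0.38 ± 0.37 (EAE T) and 0.14 ± 0.22 (naive T).

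B cells held little of these cytokines, and cell types are set side by side without a test, since T and B libraries were quantified against different transcript sets. Over 30 B cell libraries Il22 did not exceed 0.0276 CPM, Il17a 0.204 CPM, Il4 0.299 CPM, Csf2 0.340 CPM, Lif 0.340 CPM and Il21 0.388 CPM. Il2 did not exceed 1.14 CPM. Il10 reached levels closer to those of T cells. It stood at 0.154 to 1.78 CPM in EAE B and 1.07 to 3.33 CPM in naive B cells, against 2.09 to 10.6 CPM in EAE T and 0.3895 to 4.07 CPM in naive T cells. B cells are a known source of Il10.

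Activation called 1 of 7 tested genes higher in EAE B and 1 of 4 in naive B cells, in both cases Ifng, and none lower. Of all genes 21.1% and 22.7% were called higher and 18.8% and 17.5% lower. Ifng was at 5.41, 0.443 and 0.371 CPM in control Ig-stimulated and 0.825, 0.0494 and 0.0197 CPM in unstimulated EAE B cells (log2 change 3.00 ± 0.33, adjusted p = 6.73e-06), a call lost without the replicate block (2.97 ± 1.54, adjusted p = 0.173). In naive B cells it was at 0.755, 0.261 and 0.378 CPM with control Ig and 0.137, 0.199 and 0.127 CPM without stimulation (log2 change 1.58 ± 0.47, adjusted p = 0.01302). Library 1 thus carried most Ifng of EAE B cells. NK markers (6 genes) summed to 13.2 to 22.9 CPM in the 5 EAE B libraries numbered 1, against 3.00 to 6.97 CPM in those numbered 2 and 3. T cell markers (6 genes) summed to 22.5 to 30.2 CPM in libraries 1, 18.0 to 28.5 CPM in libraries 2 and 16.5 to 27.5 CPM in libraries 3. Among them Lck reached 24.2 CPM, Cd3d 3.35 CPM and Cd3e 0.747 CPM in EAE B libraries. The part of such cells in the Ifng values was not tested.

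Anti-Btla called 2 of 7 tested genes lower and 1 higher in EAE B, and 2 of 4 lower and 1 higher in naive B cells. All genes were called lower at 22.9% and 24.7% and higher at 22.2% and 19.2%, so calls were common in B cells. Il2 was at 0.0645, 0 and 0 CPM with anti-Btla in EAE B cells, against 1.05, 0.696 and 0.9303 CPM with control Ig beads, and at 0.283, 0.108 and 0.383 CPM with anti-Btla+IFNb, against 0.588, 1.14 and 0.6498 CPM with CtrlIg+IFNb (log2 change -3.06 ± 0.45, adjusted p = 7.09e-05 over both). The log2 change was -4.55 ± 0.75 without IFNb and -1.57 ± 0.46 with IFNb. Both libraries at 0 were shallow, and 3 counts in them corresponded to 0.449 and 0.218 CPM. The sums over 6 libraries were 33 counts with anti-Btla and 221 with control Ig, from libraries of 6.68 to 50.6 M and 33.1 to 61.9 M counts. In naive B cells Il2 was at 0.121, 0.158 and 0.0429 CPM with anti-Btla, against 0.627, 0.0794 and 0.249 CPM with control Ig beads. These arms overlapped. With IFNb the means were 0.0322 CPM with anti-Btla+IFNb and 0.419 CPM with CtrlIg+IFNb. The log2 change was -2.47 ± 0.67 over both (adjusted p = 0.00723), -1.60 ± 0.89 without IFNb and -3.34 ± 1.01 with IFNb. The sums over 6 libraries were 12 counts with anti-Btla and 67 with control Ig.

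Il10 fell with anti-Btla in naive B cells, to 1.81, 1.07 and 1.19 CPM with anti-Btla, against 2.04, 1.92 and 1.96 CPM with control Ig beads. With IFNb the means were 1.31 CPM with anti-Btla+IFNb and 2.37 CPM with CtrlIg+IFNb. Over both, the log2 change was -0.75 ± 0.19 (adjusted p = 0.00373), and Il10 was lower in 6 of 6 pairs. In the arms without IFNb alone, neither Il10 (adjusted p = 0.0765) nor Il2 (0.189) was called in naive B cells. Ifng fell in EAE B cells (log2 change -0.95 ± 0.22, adjusted p = 0.00279), a call that was lost without the replicate block (adjusted p = 0.629) and in the arms without IFNb alone (0.109). Il17f was called higher in both (0.59 ± 0.22 in EAE B and 0.65 ± 0.21 in naive B cells). The call held in 4 of 15 fits with a library left out in EAE B and in 12 of 15 in naive B cells, and it was lost in EAE B cells without the block (adjusted p = 0.0835). Neither pair of arms alone gave the call in EAE B (adjusted p = 0.131 without and 0.227 with IFNb) or naive B cells (0.1097 and 0.124). Its counts there were mostly those of the noncoding transcript, and with coding transcripts alone Il17f was too low to be tested.

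No cytokine gene was called in B cells for IFNb, for anti-Btla by IFNb or for EAE against naive, with edgeR or with DESeq2. At an unadjusted p below 0.05 there were 2 of 7 genes for IFNb and 1 of 7 for the interaction in EAE B cells, none of 4 for either in naive B cells, and 2 of 3 and 2 of 4 for EAE against naive without stimulation and under control Ig. The background was 0% of genes for IFNb and for the interaction in both sets, 0.0492% for EAE against naive without stimulation and 0.0189% under control Ig. At an unadjusted p below 0.05 edgeR counted 1175 of 16248 and 892 of 15901 genes for EAE against naive in these arms, 801 (EAE B) and 402 (naive B) genes for IFNb and 374 and 567 for the interaction. For IFNb and the interaction DESeq2 called 1, 3, 5 and 2. For EAE against naive it called 178 genes without stimulation and 67 under control Ig. The EAE minus naive differences of effects were likewise called for none of 7, with 1 at an unadjusted p below 0.05 for each, against 0.0808% of 17323 genes for activation and 0% for anti-Btla and IFNb. Of all genes 815 (activation), 853 (anti-Btla) and 584 (IFNb) had an unadjusted p below 0.05, and DESeq2 called 37, 17 and 4.

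Other cytokines of T cells, a list of 18 genes, were compared with the 10. Activation called 8 of 17 tested higher and 3 lower in EAE T cells, and 9 of 12 higher and 2 lower in naive T cells. Over all genes the shares called higher and lower were 31.7% and 31.4% in EAE T and 27.1% and 23% in naive T cells. Il13, a type 2 cytokine that neighbours Il4, and Il9, which acts on mast cells, rose in EAE T cells (5.67 ± 0.40 and 7.45 ± 0.59). Lta and Tnf, which encode lymphotoxin alpha and tumor necrosis factor, rose in naive T cells (3.74 ± 0.12 and 3.56 ± 0.15). Lta also rose in EAE T cells (1.83 ± 0.18). Under control Ig 6 of 17 were called higher in EAE than in naive T cells, Il13, Il3 and Il9 among them, and 5 lower, Tnf among them (-1.34 ± 0.080), beside 27.7% and 23.9% of all genes. Anti-Btla called 1 of 17 lower in EAE T cells (0.213% of all genes) and 2 of 12 in naive T cells (0.139%). These were Tnfsf8 (CD30 ligand) in EAE T (-0.42 ± 0.058) and naive T cells (-0.21 ± 0.037) and Cd40lg, which drives B cell help, in naive T cells (-0.52 ± 0.063).

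Of the receptors of the 10 cytokines (19 chains), activation called 5 of 16 higher and 8 lower in EAE T cells and 6 of 16 higher and 5 lower in naive T cells, against 31.7% and 31.4% of all genes in EAE T and 27.1% and 23% in naive T cells. The share called higher in EAE T cells was thus near that of all genes. Il2ra, the alpha chain of the Il2 receptor, stood at 2514 ± 264 CPM with control Ig and 210.4 ± 76.2 CPM without stimulation in EAE T cells, and at 698 ± 5.38 and 38.7 ± 4.53 CPM in naive T cells (SD, n = 3 each). Il21r, the receptor of Il21, rose in both (1.40 ± 0.12 and 1.14 ± 0.054), while Ifngr1 fell in EAE T cells (-1.89 ± 0.13). Anti-Btla called 1 of 16 chains, Il4ra, lower in naive T cells (-0.23 ± 0.036), against 0.139% of all genes. It called none in EAE T cells. IFNb called 1 of 16, Il2rg, the common gamma chain, higher in EAE T cells (0.32 ± 0.053), against 0.777% of all genes.

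Of 25 lineage factors and regulators, activation called 15 higher and 5 lower in EAE T cells and 16 higher and 4 lower in naive T cells, beside the same shares of all genes (31.7% and 31.4% in EAE T, 27.1% and 23% in naive T cells). Irf4, which is induced by the antigen receptor and is needed for Il17a and Il21, rose in both (4.24 ± 0.13 and 5.36 ± 0.090). Tbx21, the factor of type 1 cells that activates Ifng, was at 24.1 ± 4.02 CPM with control Ig and 0.800 ± 0.212 CPM without stimulation in naive T cells (SD, n = 3 each). Bcl6, the factor of follicular helper cells, fell in EAE T cells (-2.47 ± 0.11), where Il21 was highest. Under control Ig 15 were called higher and 5 lower in EAE than in naive T cells (27.7% and 23.9% of all genes). Ahr, which activates Il22 in type 17 cells, was among the higher (2.72 ± 0.10), and Eomes, a factor of CD8 T cells, among the lower (-3.75 ± 0.12), beside the CD8 difference given above. Anti-Btla called 2 of 25 higher in EAE T cells, Stat4 and Bcl6, against 0.481% of all genes. It called none in naive T cells (0.0198% higher and 0.139% lower). IFNb called Foxp3, the factor of regulatory T cells, and Nfatc1 higher in EAE T cells (0.31 ± 0.057 and 0.23 ± 0.052). These were 2 of 25, against 0.777% of all genes.

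Genes with the most similar pattern were sought by Pearson correlation of log2(CPM + 1) group means over the 10 T cell groups, among 9708 genes with at least 10 CPM in a group. The groups share sets and stimulation, so these are descriptions of the same contrasts. Il21 was closest to Twsg1 and Gins2 (r = 0.999 each) and then to Chd7, Chek1 and Aldoa, and Il17a to Vdac1, Exoc2 and Cdc7 (0.997 each), Lmnb1 and Mcm3. Ifng was closest to Serpinb9 (0.995), followed by Furin, Cers2, Junb and Serpina3f (0.987 each). Csf2 was closest to Tnfsf8 (0.986), followed by Med7, Odc1, Pmepa1 and Cd82. Il2 was closest to Mettl2 (0.984), Per2, Slamf1, Ccdc86 and Nfkbib, and Il10 to Cenpu (0.989), Zfp770, Mapkapk2, Plbd2 and Hps4.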

How the data were processed

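The deposited files hold, per transcript, the estimated counts and the TPM that the authors obtained with Salmon on GRCm38. DESeq2 is also named in their processing notes, with no version in these notes. The library kit and strand setting were not given in the sources used here. T and B cell libraries were quantified against different transcript sets. Estimated counts were summed over the transcripts of each gene (GENCODE M21) and over runs for the 7 libraries sequenced in 2 runs, then rounded for tests. TPM was summed over transcripts and averaged over runs, weighted by their total counts.

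The main test was edgeR 4.0.16 quasi-likelihood (R 4.3.3, TMM scaling, filterByExpr with a minimum count of 10, Benjamini-Hochberg adjustment over all genes tested, calls at 0.05). Sets of 15 libraries were fitted separately with the replicate number as a block. EAE and naive were compared over 6 libraries with no block, and differences between them over 30. Nothing in the labels says that a number is 1 animal, so p-values measure the spread between these libraries. In fits with the block this is the spread left after differences between replicate numbers were taken out. Same-numbered libraries deviated together within a set (median r over 30 pairs of 0.237 in EAE T, 0.156 in naive T, 0.419 in EAE B and 0.314 in naive B cells, with 25 to 29 pairs over 0.1, against -0.304 to -0.076 for other numbers). Alternatives were DESeq2 1.42.0, RLE size factors, no filter, no replicate block, single arms, 30 libraries in 1 fit, coding transcripts alone (chosen after seeing the data) and 96 fits that left out a library or a replicate number. Intervals cover counting error only.

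The 10 genes and the lists were chosen with earlier results of these data known. All 10 are named wherever described, of each list at most 4 called genes with the smallest p per comparison of T cells, and for 6 of the genes the 5 most alike. The test was also run on simulated counts with known changes, as a check of the code only.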

Additional observations from a re-analysis of the deposited data

Results flagged for a closer look

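The activation effect differed between EAE T and naive T cells by a direct test for 7 of the 10 genes (edgeR, EAE minus naive, log2 scale). It was larger in EAE T cells for Il21 (5.01), Il17a (4.52), Il17f (4.01) and Il4 (1.96), and smaller for Ifng (-3.66), Csf2 (-2.68) and Il2 (-2.60). With a replicate number left out, Il4 was called in 2 of 6 fits and the other 6 genes in 6 of 6. The 2 sets also differed in Cd8a and Cd8b1, 13.2 to 26.2 CPM in EAE T against 501 to 1097 CPM in naive T cells, and the part of this in the differences was not tested.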

How the results depend on the processing

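RLE size factors changed the call of none of 66 single-gene values and coding transcripts alone, chosen after seeing the data, none of 64. The number of the 10 genes called moved as follows. For anti-Btla in naive T cells (2 called) it was 0 with DESeq2, 4 with no filter on low counts, 0 in the arms without IFNb alone and 0 in the arms with IFNb alone. DESeq2 gave no adjusted p for Il2, Il21 and Lif there, nor for Il2 under anti-Btla in EAE T cells. For IFNb in EAE T cells (1 called) it was 6 with no filter, 0 in the control Ig arms alone and 0 in the anti-Btla arms alone. With no filter it was also 2 for anti-Btla in EAE T cells, 7 for EAE against naive in unstimulated T cells, and 2 each for the differences between EAE and naive T cells in anti-Btla and in IFNb. A fit of 30 libraries called 7 for EAE against naive in unstimulated T cells. Shares of all genes called are not given here for the fits with no filter or for this fit of 30 libraries. In the arms without IFNb alone, anti-Btla called 0 in naive B and 1 in EAE B cells.

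Without the replicate block, 10 of 51 single-gene values lost their call. The count was 0 for anti-Btla in naive T cells, 0 for IFNb in EAE T cells, 0 for activation in EAE B and 1 for anti-Btla in EAE B cells. Of the differences in activation between EAE T and naive T cells, Il17a (adjusted p = 0.0561) and Il4 (adjusted p = 0.0509) were lost without it.

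With a library or replicate number left out, 669 of 746 single-gene values kept their direction and side of the threshold, 61 lost and 15 gained a call, and 1 reversed. This was Il10 for activation in EAE T cells, which ran from -0.015 without unstimulated library 3 to 1.16. The number called ran from 0 to 2 for anti-Btla in naive T and for IFNb in EAE T cells, from 0 to 1 for activation in naive B cells and for the difference in anti-Btla between EAE T and naive T cells, from 1 to 3 for activation in EAE B and from 4 to 6 for EAE against naive in unstimulated T cells. The cause of these changes was not tested. Depth limits Il22 in naive T and Il17a, Il4 and Csf2 in B cells, which were below 3 counts in most libraries. Lif in B cells was low as well, with 3 counts or more in 12 of 15 EAE B and 11 of 15 naive B libraries.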
